A study of Mus musculus with 5 samples.

Results

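This account covers the Wnt ligands, their receptors and the secreted proteins that regulate them, across mixtures of adult colon RNA and whole newborn mouse RNA. The members were all genes whose symbol is Wnt, Fzd, Sfrp or Dkk followed by a number, together with Lrp5, Lrp6, Wif1, Frzb, Axin2, Porcn and the R-spondins Rspo1 and Rspo2. They numbered 44 of the 12393 genes that the array named, and 63 probe sets measured them. Each was represented by its brightest probe set by mean signal over the 5 arrays. Rspo3, also on the list, had no probe set in the table, and it is not analysed here.

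Total RNA was taken from C57BL/6 mice as 2 pools, each of several animals. One pool came from whole mice killed at 1 day of age, and the other from the colon of adults aged 8 weeks. Colon RNA made up 0%, 25%, 50%, 75% or 100% of the total RNA, and each mix was measured on 1 Affymetrix array after 2 rounds of T7 amplification from 10 ng. No mix had a replicate array. Signals are log2 values made by the authors with RMA, a method that corrects background and puts the arrays on a common distribution.

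Wnt proteins are lipid-modified secreted signals that act over short distances. A Wnt bound to a Frizzled receptor and to the co-receptor Lrp5 or Lrp6 stabilises β-catenin, which enters the nucleus and works with LEF/TCF factors, while other Wnts act without β-catenin on cell polarity and movement. In the colon, Wnt signals from cells around the crypt base sustain the epithelial stem cells, and in the embryo and newborn they shape limbs, kidney, skeleton, skin and brain.

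The pools carried the marks of their labels. Of 11 colon epithelium markers, all 11 had slopes above 0, and of 8 skeletal muscle and 7 liver markers, all were below 0. Array medians lay between 6.83 and 6.92 log2. Below, a slope is the log2 change that limma fitted from 0% to 100% colon over all 5 arrays, and a gene "rose" or "fell" when its Benjamini-Hochberg adjusted p over 22626 probe sets was under 0.05. Values on the 5 arrays run from 0% to 100% colon. The pools differed in age as well as tissue, and the effects of these cannot be told apart. In such bulk RNA, fewer cells of a type and less RNA per cell cannot be told apart either. With 1 pool of each kind, the p-values do not reflect variation among mice. They reflect scatter along the dilution and also how strongly a gene's log2 values curve, so a large but curved change can miss the threshold.

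Of the 44 Wnt genes, 8 fell with rising colon share and 0 rose. Those that fell were the ligands Wnt2, Wnt4, Wnt5a and Wnt7a, the receptor Fzd2 and the inhibitors Sfrp2, Wif1 and Frzb. The 8 make up 18.2% of the members, near the 14.5% of all 12393 genes that fell, whereas 9.80% of all genes rose. The 5 values were in strict order in 5 members, against 20.7% of all genes. At an unadjusted limma p under 0.05, 16 of the 44 passed, against 41.3% of all genes. Of the 36 that missed the adjusted threshold, 23 stayed within 0.5 log2 over all arrays. The median slope was −0.18 log2 over the members and −0.01 over all genes. Slopes lay below 0 in 36 members, but in 25 once each array was centred on its median, so the direction of the small slopes depends on the scaling. Between the undiluted arrays, 5 members (11.4%) were at least 2-fold lower in colon, against 10.4% of all genes. None was at least 2-fold higher in colon, against 9.26% of all genes.

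**Figure D1:**
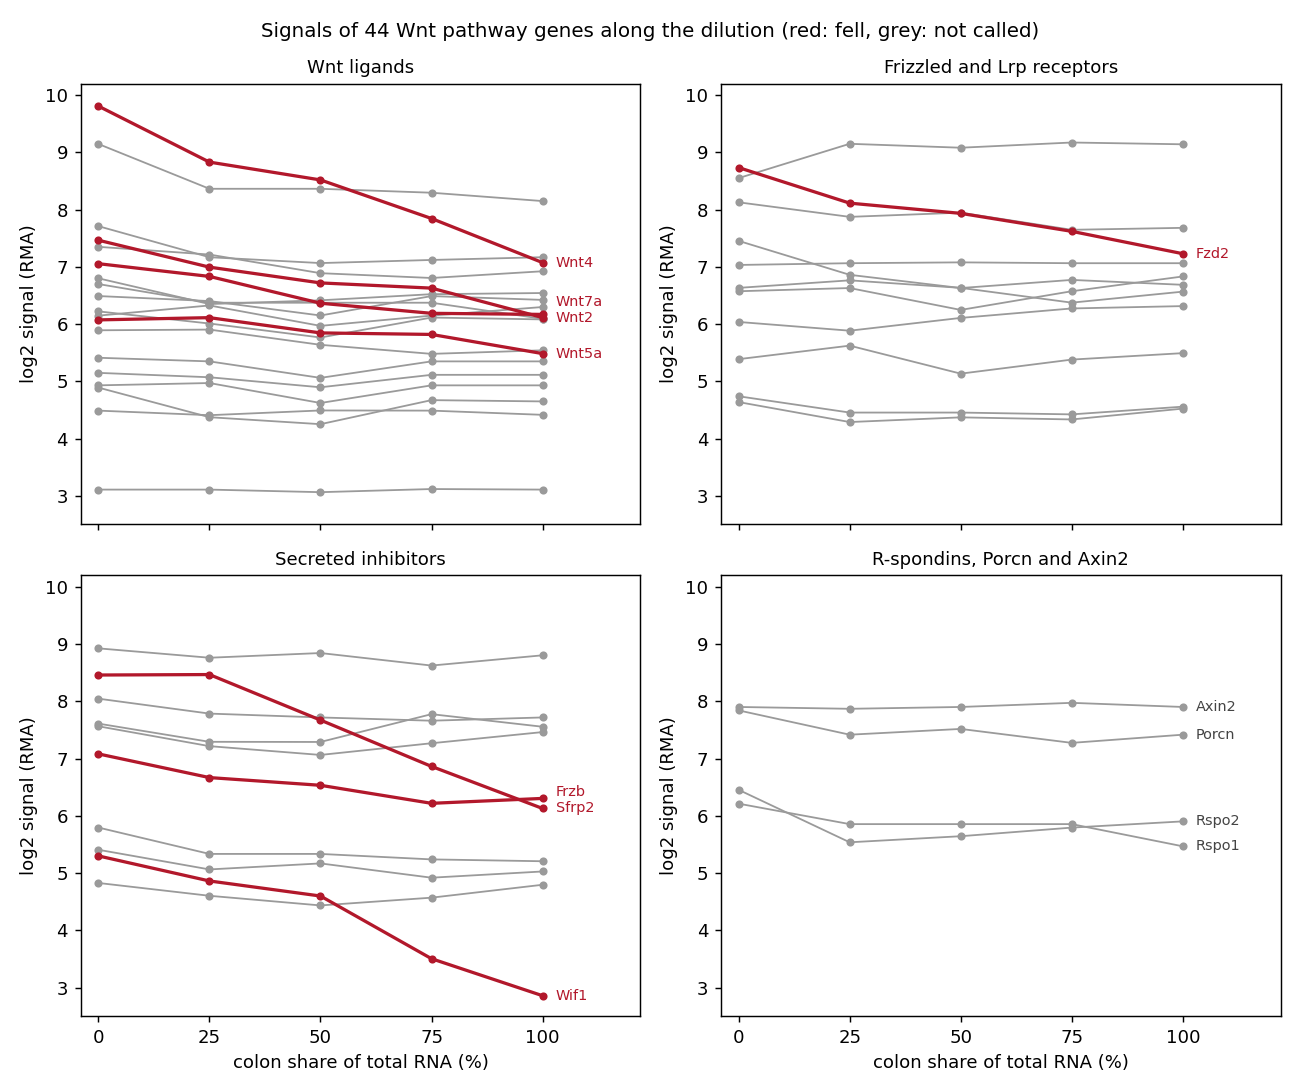
Log2 signal (vertical axis) against the colon share of total RNA in percent (horizontal axis) for the 44 genes, 1 line a gene and 1 array a point, with the 8 genes that fell in red and named. Wnt4 descends over all 5 arrays, Sfrp2 stays level at first, and most grey lines are nearly flat.

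Among the 19 ligands, 4 fell, and the one with the largest change was Wnt4, known for its part in kidney tubules and the female reproductive tract. Its signals were 9.81, 8.83, 8.52, 7.84 and 7.07 log2, each array lower than the one before. The undiluted colon array was 6.65-fold below the whole mouse array, and the slope was −2.58 log2 (SE 0.19, adjusted p = 0.00425). Wnt4 is the only one of the 8 that passed the test without each array in turn, with adjusted p between 0.0272 and 0.0420.

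Wnt2, a ligand of mesenchyme best known from the lung and placenta, had signals of 7.46, 6.99, 6.72, 6.63 and 6.11. They too were in strict order, with a slope of −1.23 log2 (SE 0.15, adjusted p = 0.0104). Wnt7a, which patterns the dorsal limb and the reproductive tract, had 7.06, 6.83, 6.36, 6.19 and 6.17. The lowest level was nearly reached at 75% colon, and its slope was −0.97 log2 (SE 0.16, adjusted p = 0.0218). Wnt5a drives outgrowth of limbs, face and gut through signals that do not need β-catenin. It had 6.07, 6.11, 5.85, 5.82 and 5.48, a shallow fall seen mainly on the colon array (slope −0.59 log2, SE 0.14, adjusted p = 0.0467). With the arrays centred, Wnt5a missed the threshold (adjusted p = 0.0524). Its other probe set had a slope of 0.00 log2 but was dim, with a mean of 3.99 log2.

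The other 15 ligands did not pass. The widest of their slopes was that of Wnt7b, a ligand of lung and kidney collecting duct epithelium. It had 9.15 on the whole mouse array, then 8.36, 8.36, 8.29 and 8.15 (slope −0.83 log2, SE 0.26, adjusted p = 0.0906). The step thus lay between the whole mouse array and the 25% mixture, and Wnt7b's other probe set was flat, at 0.03 log2. Wnt6 (−0.51 log2), Wnt11, a ligand of the branching kidney (−0.49 log2), Wnt10b (−0.45 log2) and Wnt5b (−0.45 log2) had slopes next in size. Averaged over both of its probe sets, Wnt5b passed (slope −0.62 log2, adjusted p = 0.0318).

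Slopes of the remaining 10 ligands were small. They were −0.14 log2 for Wnt1, which acts in the midbrain, −0.07 for Wnt9a and Wnt2b, −0.05 for Wnt16, −0.03 for Wnt8a, −0.02 for Wnt3a and Wnt8b, −0.01 for Wnt9b, 0.00 for Wnt3 and 0.05 for Wnt10a. Wnt3, a ligand that Paneth cells make in the small intestine, had signals between 3.06 and 3.12 on all arrays, close to the lowest values in the table. With Wnt8a, Wnt8b and Wnt9a it was among the 8 of 44 members whose mean signal lay under 5 log2. Dkk4, Fzd1, Lrp5 and Wif1 were the others. At that level a flat signal need not mean steady expression. The brightest probe sets of Wnt3, Wnt5b and Sfrp1 are of a type (x_at) that can bind transcripts of other genes. Wnt2b, made by gut mesenchyme, had 6.22, 6.01, 5.77, 6.11 and 6.08. Its low point was the 50% mixture, so the values do not follow the share. That mixture was the lowest array in 34.1% of the members and in 22.8% of all probe sets. Several Wnt genes are chromosomal neighbours, namely Wnt6 with Wnt10a, Wnt3a with Wnt9a, Wnt9b with Wnt3, and Wnt10b with Wnt1. In none of these 4 pairs did either gene pass, but neither did 81.8% of the members and 9381 of all 12393 genes.

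**Figure D2:**
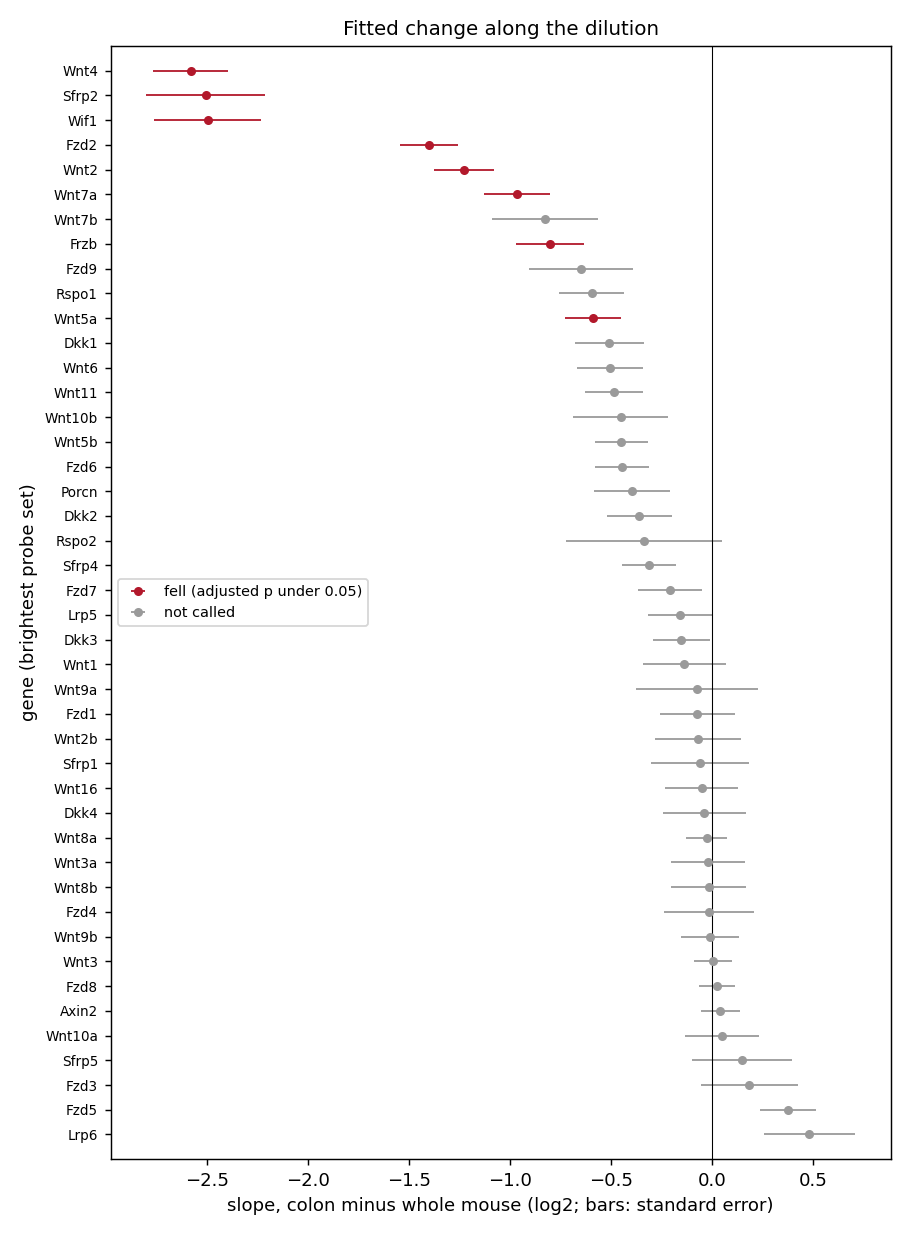
Slope of log2 signal over the dilution, colon minus whole mouse (horizontal axis, bars 1 standard error), for each of the 44 genes in order of slope. The 8 genes that fell are red, and Wnt4, Sfrp2 and Wif1 stand near −2.5 log2, apart from the rest.

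Among the 11 receptors, 1 fell and none rose. It was 1 of 9 Frizzled genes, and neither of the co-receptors Lrp5 and Lrp6 passed. Fzd2, a Frizzled of mesenchyme that also receives Wnt5a, had signals of 8.73, 8.11, 7.93, 7.62 and 7.23. They were in strict order, 2.84-fold lower on the colon array than on the whole mouse array, with a slope of −1.40 log2 (SE 0.15, adjusted p = 0.00771). Its other 2 probe sets fell as well, with slopes of −1.38 and −1.58 log2, so Fzd2 is the one gene here whose fall was measured by 3 probe sets.

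The other Frizzleds had slopes between −0.65 log2 (Fzd9) and 0.38 log2 (Fzd5). Fzd5, which Paneth cells need to mature, had 6.04, 5.88, 6.11, 6.27 and 6.31 (SE 0.14, adjusted p = 0.128). It was highest on the arrays richest in colon RNA, by a margin the test did not separate from the scatter. Fzd9 stood out by its whole mouse array, with 7.45 there and 6.63 to 6.86 on the other arrays (adjusted p = 0.149). Fzd6, a polarity receptor of skin and hair, had a slope of −0.45 log2 (adjusted p = 0.08), and Fzd3, a receptor of axon guidance, had one of 0.18 log2. The other probe set of Fzd6, with a mean of 5.05 log2, had a slope of −0.06 log2. The 4 probe sets of Fzd3 had slopes between −0.14 and 0.28 log2, and none passed.

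Fzd7, a receptor of intestinal stem cells, had a slope of −0.21 log2 in its brightest probe set and 0.51 in the other. The probe sets pointed in opposite directions and neither passed. Slopes were −0.07 log2 for Fzd1, −0.01 for Fzd4, the receptor for norrin in retinal vessels, and 0.02 for Fzd8. Among the co-receptors, Lrp6 had 8.55, 9.15, 9.08, 9.17 and 9.14 (slope 0.48 log2, adjusted p = 0.217), and Lrp5 −0.16 log2. In this probe set Lrp6 was thus lowest on the array without colon RNA and level on the other 4. Its other probe set was lowest in the 25% mixture, at 5.27 log2 (slope 0.25 log2, adjusted p = 0.480).

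Of the 10 secreted inhibitors, 3 fell, among them 2 of the 3 genes with the largest slopes. Sfrp2 binds Wnts through a domain shared with Frizzled receptors and is made by embryonic mesenchyme. Its signals were 8.46, 8.47, 7.67, 6.86 and 6.13, level up to 25% colon and then lower on each array. The colon array was 5.03-fold below the whole mouse array (slope −2.51 log2, SE 0.29, adjusted p = 0.00972). Without the 75% mixture or the colon array, Sfrp2 missed the threshold (adjusted p = 0.0523 and 0.0828).

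Wif1 traps Wnts outside the cell and is prominent in cartilage and brain. It had 5.30, 4.86, 4.60, 3.51 and 2.86, in strict order, with a slope of −2.50 log2 (SE 0.27, adjusted p = 0.00798). Its colon signal lay at or above only 0.376% of all probe sets on that array, so the size of the fall is inexact. On the whole mouse array the share at or below its signal was 22.0%. Frzb, a Wnt antagonist first known from cartilage, had 7.08, 6.67, 6.53, 6.22 and 6.30 (slope −0.80 log2, SE 0.17, adjusted p = 0.0359). Its other probe set was flat at −0.06 log2 but dim, with a mean of 4.77 log2, a level at which a change can go unseen. Averaged over both, Frzb missed the threshold (adjusted p = 0.0653).

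The other 7 inhibitors did not pass. Dkk1 binds the co-receptors Lrp5 and Lrp6. The slopes were −0.51 log2 for Dkk1, needed for head formation, −0.36 for Dkk2, −0.15 for Dkk3 and −0.04 for Dkk4. Dkk1 had 5.80 on the whole mouse array and between 5.21 and 5.34 on the other arrays (adjusted p = 0.102). Slopes of the Sfrp relatives were −0.06 log2 for Sfrp1, −0.31 for Sfrp4 and 0.15 for Sfrp5. Of the 4 Sfrp genes, Sfrp2 alone passed, though the differences between family members were not tested. The 4 probe sets of Sfrp1 had slopes between −0.26 and 0.07 log2.

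The R-spondins raise Wnt sensitivity by binding Lgr receptors and removing the ubiquitin ligases Rnf43 and Znrf3 from the cell surface. Rspo1 had 6.21, 5.86, 5.86, 5.86 and 5.47 (slope −0.60 log2, SE 0.16, adjusted p = 0.0623). It passed in the fit with 1 averaged value a gene (adjusted p = 0.0460). The 3 mixtures shared 1 value, as the median polish in RMA can give. Some tie between arrays was found in 18 of the 44 members and in 9158 of all 22626 probe sets. Rspo2 had 6.45 on the whole mouse array and 5.54, 5.64, 5.79 and 5.90 on the others (adjusted p = 0.618), so its mixtures lay below both undiluted RNAs. Porcn, the enzyme that attaches the lipid to Wnts, had a slope of −0.40 log2 (adjusted p = 0.217).

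Axin2, a scaffold of the β-catenin destruction complex that Wnt signalling itself induces, is widely read as a measure of pathway activity. It had 7.90, 7.87, 7.90, 7.97 and 7.90, a slope of 0.04 log2 (SE 0.10, adjusted p = 0.823). Its signal was the same on both undiluted arrays and the 50% mixture, a tie of the kind seen for Rspo1. Its other probe set had a slope of 0.05 log2 but was dim, with a mean of 4.20 log2. Pathway activity itself was not measured.

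Promoter sequence is given for the genes that fell by at least 1 log2 and are in the RefSeq promoter table (GRCm38.p6), to show the sequence at their start sites. Each line is the 250 bases before the transcript start in that table, 5′ to 3′ on the gene's strand, with capitals marking the GC box GGGCGG or its complement, overlaps counted. The regions are chr4:137277385-137277634 on the plus strand for Wnt4, chr3:83766071-83766320 plus for Sfrp2, chr10:121033754-121034003 plus for Wif1 and chr6:18030446-18030695 minus for Wnt2. For Wnt4 and Wif1 the stretch ends where the RefSeq gene begins, while for Sfrp2 and Wnt2 it lies inside the span of the RefSeq gene.
Wnt4: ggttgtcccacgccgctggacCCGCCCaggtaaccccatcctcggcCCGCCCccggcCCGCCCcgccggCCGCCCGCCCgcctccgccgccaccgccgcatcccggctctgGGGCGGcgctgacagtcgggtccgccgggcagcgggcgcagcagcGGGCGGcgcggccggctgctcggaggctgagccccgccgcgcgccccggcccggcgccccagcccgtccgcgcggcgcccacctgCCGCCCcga
Sfrp2: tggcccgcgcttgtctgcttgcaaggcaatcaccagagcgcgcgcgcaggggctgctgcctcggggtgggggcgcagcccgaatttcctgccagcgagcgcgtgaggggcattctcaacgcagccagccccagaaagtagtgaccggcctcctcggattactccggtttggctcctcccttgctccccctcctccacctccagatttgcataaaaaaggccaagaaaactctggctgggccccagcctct
Wif1: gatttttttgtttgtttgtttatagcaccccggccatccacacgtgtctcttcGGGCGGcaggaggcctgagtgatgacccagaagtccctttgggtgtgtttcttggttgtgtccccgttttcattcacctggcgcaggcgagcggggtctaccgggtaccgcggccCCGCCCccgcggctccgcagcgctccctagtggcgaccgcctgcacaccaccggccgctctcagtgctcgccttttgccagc
Wnt2: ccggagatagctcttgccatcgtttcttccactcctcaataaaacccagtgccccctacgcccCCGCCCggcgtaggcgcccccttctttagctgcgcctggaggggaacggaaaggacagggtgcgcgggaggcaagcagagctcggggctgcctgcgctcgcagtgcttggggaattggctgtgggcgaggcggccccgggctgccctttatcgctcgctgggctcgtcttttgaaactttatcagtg

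The stretch before Wnt4 was 85.2% G and C and held 8 GC boxes, while those of Sfrp2, Wif1 and Wnt2 were 63.6%, 62.8% and 63.6% G and C and held 0, 2 and 1. The table held promoters for 28 of the 44 members, the first entry being taken for each gene, with a median G and C content of 68.6%, against 52.0% over 27025 genes. A GC box on either strand was found in 75.0% of the member promoters and 32.9% of all promoters. The LEF/TCF core, searched as CTTTGA on both strands, was in 4 of the 28 member promoters and in 14.05% of all. A longer form, CTTTG followed by A or T at each of the next 2 bases, had been counted first and was in 3 of the 28 and in 14.9% of all. The shorter form was chosen after those counts were seen. The TATA box, TATAAA on either strand, was in 5 of the 28 and in 13.0% of all. Of the 6 fallen genes with an entry, 5 had a GC box, 1 a TATA box and 1 the shorter LEF/TCF core in these windows, and 0 had the longer form.

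Mixtures were also set against linear mixing, that is, the weighted mean of the undiluted intensities. Wnt4 lay below that value in every mixture, by 0.63 log2 at 25% colon, 0.49 at 50% and 0.50 at 75%. Fzd2 also lay below it in all 3, by 0.37, 0.24 and 0.15 log2. Sfrp2 lay 0.33 log2 above at 25% and 0.27 below at 75%. Over the 44 members the median deviations were −0.18, −0.22 and −0.15 log2, and over all probe sets −0.05, −0.08 and −0.06. The whole mouse array held the highest signal, ties included, in 29 members (65.9%) and in 39.6% of all probe sets. These shares are descriptions without a test. Without that array, 4 members fell (Wnt4, Sfrp2, Wif1 and Fzd2) and 0 rose, while 1003 of all 22626 probe sets fell and 489 rose.

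**Figure D3:**
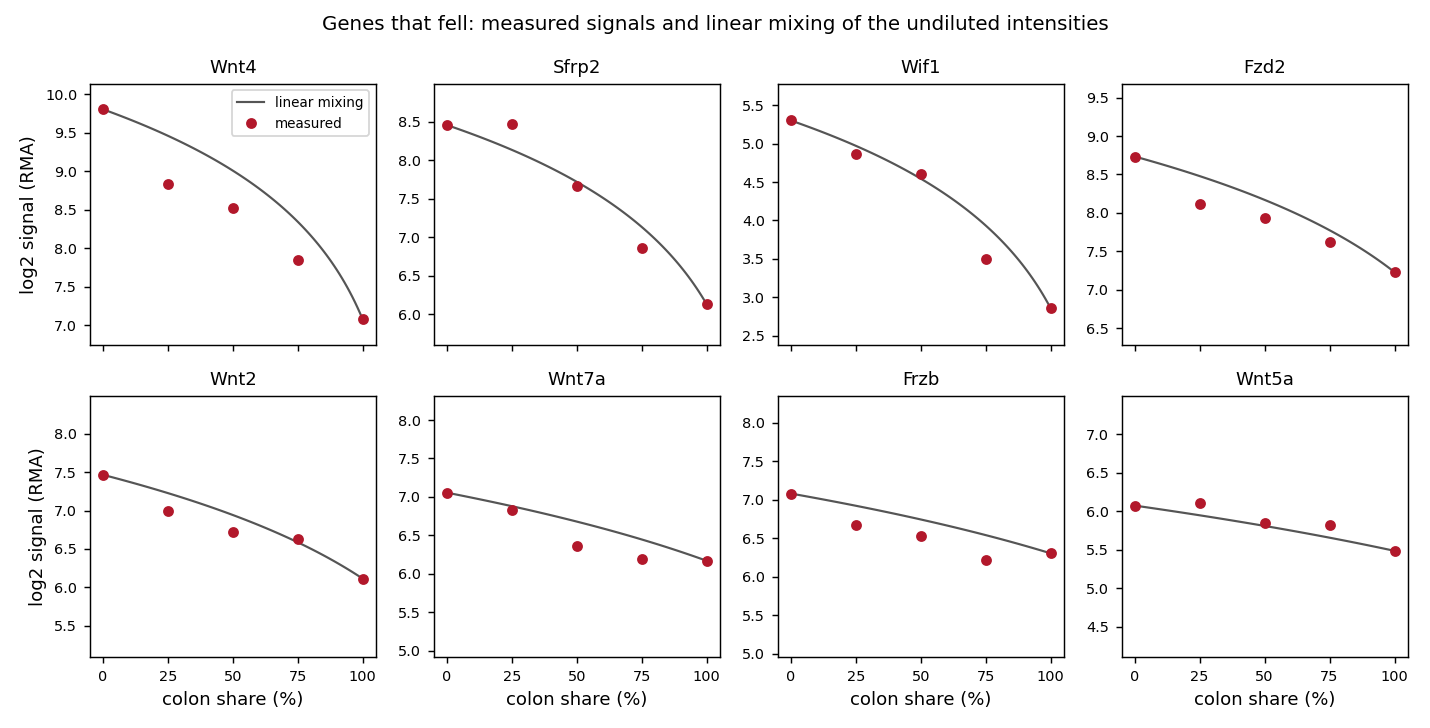
Measured log2 signals (red points, vertical axis) of the 8 genes that fell, against the colon share in percent (horizontal axis), with the curve that linear mixing of the 2 undiluted intensities would give. The vertical scale spans the same log2 range in each panel, and all 3 mixtures of Wnt4, Wnt7a, Fzd2 and Frzb lie under the curve.

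The number of members that fell depended on single arrays. Leaving out the whole mouse array or the 75% mixture gave 4 each, leaving out the 25% mixture 5 and leaving out the 50% mixture 6. Falls over all 22626 probe sets dropped too, from 2456 to 1003, 1143, 1692 and 1428 in that order. Only Wnt4 passed when the colon array was left out, a fit in which 829 of all probe sets fell. No member rose in any of these fits, each of which has fewer residual degrees of freedom. Rises were fewer over all probe sets as well, between 168 and 1306, against 1953 with all arrays. Wif1 and Fzd2 passed in 4 of the 5 fits, Wnt2 and Sfrp2 in 3, Wnt7a in 1, and Frzb and Wnt5a in none.

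Other genes of the pathway moved both ways, and their lists overlap. Over all 12393 genes 14.5% fell and 9.80% rose, and the lists below were not tested against these shares. Of 17 measured surface and secreted components outside the family, 5 fell and 2 rose, with a median slope of −0.13 log2. The largest falls were those of Apcdd1, a membrane inhibitor of Wnt signalling in hair follicles (8.58, 8.41, 7.91, 7.20 and 5.51, slope −2.94 log2), and Sostdc1, an inhibitor of Wnt and BMP signals in teeth and hair (8.04, 7.71, 7.03, 6.35 and 5.23, slope −2.80 log2). Gpc3, a cell-surface glypican of growing organs, had a slope of −2.78 log2 (adjusted p = 0.00896). Each was lower on every array than on the one before. The genes that rose were Rnf43, the ligase that removes Frizzled receptors (6.12, 6.39, 6.74, 7.13 and 7.07, slope 1.05 log2, adjusted p = 0.0184), and Wls, which carries Wnts to the cell surface (slope 0.82 log2, adjusted p = 0.0366). Ryk, a Wnt-binding receptor tyrosine kinase relative, lay between 9.17 and 9.25.

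Inside the cell, 2 of 20 transducers and destruction complex genes rose and 1 fell (median slope −0.01 log2). Frat2, which binds the kinase GSK3 and favours β-catenin, had 7.44, 7.76, 8.15, 8.33 and 8.82 (slope 1.33 log2, adjusted p = 0.00574). Apc, the tumour suppressor of the destruction complex, rose by 0.79 log2 and the casein kinase Csnk1e fell by 1.10, while Csnk1d lay between 12.09 and 12.25. Of 14 nuclear factors, 2 fell and 1 rose (median −0.30 log2). Ctnnbip1, which keeps β-catenin from TCF, fell by 1.15 log2 and the co-activator Bcl9 by 0.51, whereas the co-repressor Tle1 rose by 0.59. Pygo2, a partner of Bcl9, did not pass (slope −0.31 log2, adjusted p = 0.233). With arrays centred, 2 nuclear factors rose and 1 fell.

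Planar polarity and crypt genes completed the lists. Of 6 polarity genes 3 fell and 0 rose (median −0.40 log2), namely Prickle1 (−1.19 log2), Celsr3 (−0.87) and Celsr2 (−0.63), with Vangl1 at −0.17 (adjusted p = 0.658). Of 15 genes that respond to Wnt in crypts, 3 rose and 1 fell (median 0.03 log2). Ascl2, a stem cell transcription factor of the crypt base, had 6.92, 7.16, 7.28, 7.37 and 7.73, in strict order (slope 0.73 log2, adjusted p = 0.0202). Prom1, a progenitor membrane protein, rose by 3.38 log2 but barely passed (SE 0.82, adjusted p = 0.0493). Slc12a2, a chloride cotransporter of crypts, rose by 2.08 log2 (adjusted p = 0.0342), and Tnfrsf19 fell by 2.23 (adjusted p = 0.017). Lgr5, the stem cell receptor for R-spondins, had 5.62, 5.41, 5.67, 5.84 and 6.11 (slope 0.56 log2, adjusted p = 0.0938). Ets2 had a slope of 0.84 log2 (adjusted p = 0.0555). Without the colon array, the 5 lists held 1 rise and 1 fall among the surface and secreted components, 1 rise and 0 falls among the transducers, and no call in the others.

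**Figure D4:**
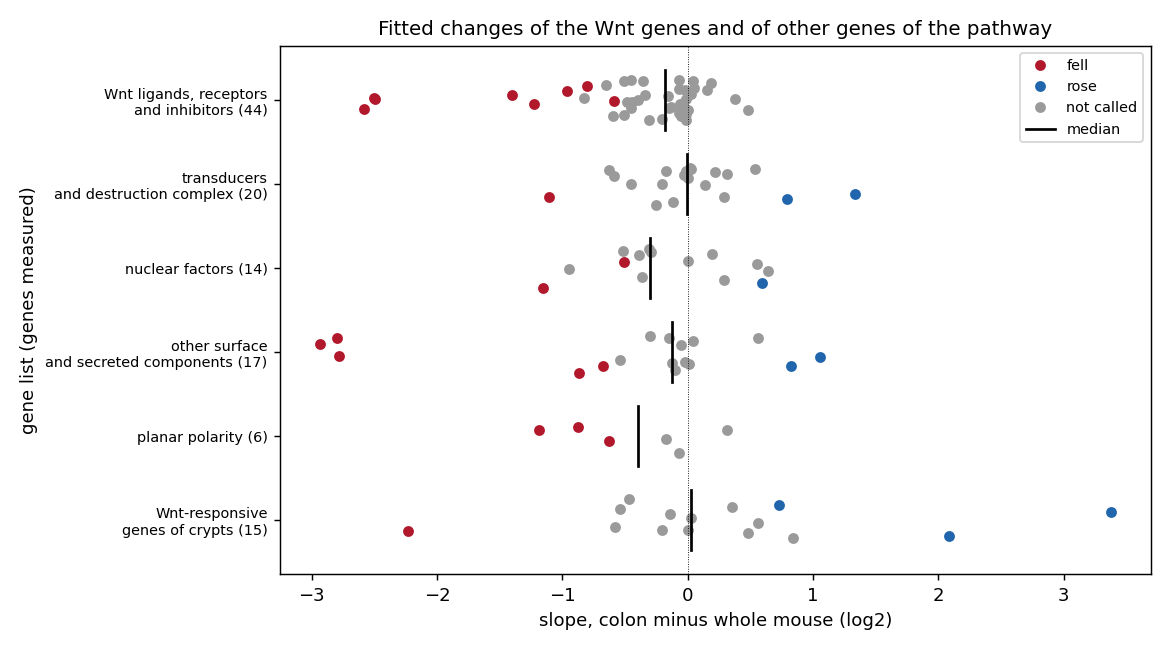
Slopes in log2, colon minus whole mouse (horizontal axis), of the 44 Wnt genes and of 5 lists of other pathway genes (rows, 1 point a gene, black bar the median). The 44 Wnt genes hold no blue point, while the lists hold genes that rose as well as genes that fell, save for planar polarity, where 3 fell and 0 rose.

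Among markers of newborn tissues some fell and none rose with colon share. Of 12 fibroblast and dermis markers 7 fell and 0 rose, of 8 cartilage and bone markers 5 fell and 0 rose, of 10 brain markers 6 fell and 0 rose, and of 8 epidermis markers 5 fell and 0 rose. The log2 of their mean intensity on the colon array and on the whole mouse array was 10.28 and 11.59 for fibroblasts, 6.14 and 9.80 for cartilage and bone, 5.99 and 8.41 for brain, and 5.96 and 12.20 for epidermis. Slopes were above 0 in 2 of the fibroblast, 1 of the cartilage and bone and 1 of the brain markers. Of 11 colon epithelium markers 2 rose and of 8 smooth muscle markers 2 rose, with mean levels of 12.87 and 11.63 log2 in colon, against 9.17 and 10.07 in whole mouse. Slopes were above 0 in all 11 and in 7 of the 8. Car1, a colon marker not called, had 6.62, 13.73, 13.83, 13.84 and 14.02 log2 (adjusted p = 0.174). Lor, an epidermis marker not called, was 237-fold lower in undiluted colon (adjusted p = 0.0865). A straight line in log2 thus misses some large changes that bend along the dilution. The part of cell makeup in the Wnt genes' falls was not tested.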

How the data were processed

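RNA was measured on 5 Affymetrix mouse arrays, 1 for each mix of 0%, 25%, 50%, 75% and 100% colon RNA, and samples were grouped by the colon share in their labels. The authors deposited log2 signals made with RMA, per the submitters' processing notes; its version and the array software are not given in the sources used here. Of 22690 probe sets, 64 controls were left out and 22626 tested without a filter on signal. The platform annotation gave 1 gene to 20380 of them, several to 691 and none to 1555; symbols were updated through gene identifiers against RefSeq (20351 matched). Log2 signal was regressed on colon share (0 to 1) with limma 3.58.1 in R 4.3.3, with 3 residual degrees of freedom, eBayes moderation, 2-sided tests and a Benjamini-Hochberg adjusted p of 0.05 as threshold. The script was tested on simulated data. The number of arrays limits the precision. Alternatives were array centring, trended and robust eBayes, regression of linear intensity, a minimum mean log2 signal of 7, averaging the probe sets of a gene, and leaving out each array.

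The members and gene lists were chosen with earlier results of these data known. All 44 members were described. From each pathway list the text named the 3 called genes with the largest slope and the brightest uncalled gene. Wls, Rnf43, Ascl2 and Lgr5 fall outside that rule and were picked after their values were seen.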

Additional observations from a re-analysis of the deposited data

How the results depend on the processing

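No paired analysis was possible because each mix had 1 array and the labels give no replicate numbers. No member rose under any alternative run. The number that fell was 8 with all arrays, with trended eBayes and with linear intensity, 7 with centred arrays (Wnt5a lost), 8 with probe sets averaged (Frzb and Wnt5a lost, Wnt5b and Rspo1 gained), 3 with a minimum mean log2 signal of 7 (which kept 15 of the 44 members), and between 1 and 6 when 1 array was left out. Leaving out 1 array gave between 168 and 1306 rises over all probe sets, against 1953 with all, and between 829 and 1692 falls, against 2456. Centring the arrays gave 3148 rises and 2325 falls.

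Leaving out 1 array gave 1 to 3 falls and 0 or 1 rises among other surface and secreted components, 0 or 1 falls and 0 or 1 rises among nuclear factors, and 0 or 1 falls and 1 or 2 rises among transducers. It gave 0 to 2 falls in planar polarity, and 0 or 1 falls and 0 to 2 rises among crypt genes. Nuclear factors had 2 rises and 1 fall with centred arrays, and 2 rises with probe sets averaged. Crypt genes had 2 falls with trended eBayes or with the minimum of 7, and 5 rises with probe sets averaged. Surface and secreted components had 1 rise and 3 falls with the minimum of 7. Fits without an array have fewer degrees of freedom; for the other changes the cause was not tested.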
